A study of Mus musculus with 90 samples.

Results

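The colony-stimulating factor 1 receptor, encoded by Csf1r, is a receptor tyrosine kinase that monocytes and macrophages need to survive and to mature. It binds CSF1 and IL-34, which stromal and epithelial cells make, and its level is widely used to follow macrophages in tumours. The genes described here are that receptor, both ligands (Csf1 and Il34) and 2 chains of the neighbouring GM-CSF receptor, Csf2ra and Csf2rb. Csf2ra encodes the chain specific to GM-CSF, and Csf2rb encodes the beta chain that the receptors for GM-CSF, IL-3 and IL-5 share. All 12 probe sets that name 1 of these 5 genes and no other were taken, out of 34958 probe sets that name a single gene and 18194 genes in all. Each gene is given by its brightest probe set on average, and its other probe sets are described separately.

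RNA of whole subcutaneous melanoma allografts, 1 tumour per mouse number, was hybridised to 90 Affymetrix arrays. The genotype given for every tumour was Hgftg;Cdk4R24C/R24C and the strain B6.cBrd, so no group serves as a control for the transgene or the Cdk4 allele. Mice received an antibody against mouse PD-L1 (clone 80, mouse IgG1 with the D265A change) at 10 mg/kg, a control mouse IgG1 D265A antibody (NIP228) at 10 mg/kg, or PBS at 10 ml/kg, and the series text also names 20 mg/kg for the antibodies. The labels used here state neither age nor sex of the mice. Study 2 held 3 relapse, 17 responder, 2 growth delay, 14 non-responder, 14 IgG and 3 PBS tumours. Study 3 held 3 relapse, 3 stabilization, 10 responder, 9 non-responder, 8 IgG and 4 PBS tumours.

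The outcome names apply to mice given anti-PD-L1. Responder tumours lost at least 5% of their volume and were taken after 2 to 12 doses, while non-responder tumours grew and were taken at comparable times. Stabilization tumours were a subset of responders with no volume change between 2 successive measurements. Relapse tumours had become too small to measure and regrew after 4 to 10 doses, and growth delay tumours appeared after treatment in mice without early growth.

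All values are log2 probe set values, on which a difference of 1 is a doubling. A gene was called when its adjusted p was under 0.05 in a limma fit over all 18194 genes, with Benjamini-Hochberg adjustment. Tumours are bulk tissue, so fewer cells of a type and less RNA per cell cannot be told apart for any gene below. In 84 of 90 tumours the melanocyte list (13 of its 14 genes measured, Mlana and Tyr among them) averaged 9.04 to 10.21, and in the other 6 it was below 9. These 6 were study 2 responder replicate 5, study 2 non-responder replicate 14, study 3 responder replicates 3 and 4, and study 3 stabilization replicates 1 and 2. Their Csf1r values were 12.19 to 13.44, and results that depend on them are given with and without them. 1 array, study 3 PBS replicate 2, stood apart in RNA quality: its Actb and Gapdh control probe sets read 5.20 more at the 3 prime than at the 5 prime end, against 0.93 or less on all others.

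Promoters of Csf1 and Csf2ra, both higher in responders, are shown because the RefSeq table used here holds them. They are windows of 300 bases on GRCm38.p6, from 250 bases before the start site to 50 after it, found for 2 of the 5 genes. The windows lie at chr3:107760420-107760719 on the minus strand for Csf1 and at chr19:61228369-61228668 on the minus strand for Csf2ra. Capitals mark matches on either strand to any of 7 motifs searched.
Csf1: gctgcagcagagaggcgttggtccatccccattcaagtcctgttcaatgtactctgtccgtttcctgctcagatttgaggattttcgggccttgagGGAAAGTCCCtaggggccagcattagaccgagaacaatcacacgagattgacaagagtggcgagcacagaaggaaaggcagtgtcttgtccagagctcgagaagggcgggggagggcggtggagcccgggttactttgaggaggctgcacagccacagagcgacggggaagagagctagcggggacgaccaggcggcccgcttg
Csf2ra: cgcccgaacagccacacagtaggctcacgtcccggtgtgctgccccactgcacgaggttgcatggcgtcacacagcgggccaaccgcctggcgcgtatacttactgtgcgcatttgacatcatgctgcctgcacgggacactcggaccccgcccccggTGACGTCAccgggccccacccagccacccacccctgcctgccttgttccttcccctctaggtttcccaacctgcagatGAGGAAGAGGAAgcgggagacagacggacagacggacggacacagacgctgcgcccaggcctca
The Csf1 window holds 1 NF-kB motif (GGG, a gap of 2 bases, then TTTCC) on the opposite strand, at -154 to -145 from the start site, and 1.63% of 32851 promoter windows hold that motif. The Csf2ra window holds the CRE motif (TGACGTCA) at -92 to -85 from the start site, which 1.79% of windows hold. It also holds 2 adjacent copies of an ETS core with flank (GAGGAA) within 14 bases of the start site, a motif in 28.3% of windows. No copy of GAS (TTCNNNGAA), the IRF pair (GAAA, a gap of 2 bases, GAAA), AP-1 (TGANTCA) or the E-box (CACGTG) was present in either window, against 8.30%, 3.44%, 7.81% and 7.15% of all windows. These matches describe the letters and do not show that a factor binds.

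The first question was whether tumours that shrank under anti-PD-L1 differed in these genes from tumours that grew under it. Averaged with equal weight over both studies, 4 of the 5 genes were higher in responders and Il34 was not called, against 18.9% of all genes called higher in this comparison. The receptor subunits moved most: Csf2rb was higher by 1.55 ± 0.30 (SE) and Csf1r by 1.40 ± 0.28, which correspond to 2.94-fold and 2.64-fold. Csf2ra was higher by 0.90 ± 0.17 and Csf1 by 0.53 ± 0.11. Il34 differed by -0.04 ± 0.08. The limma adjusted p-values were 1.17e-04 for Csf2rb, 1.47e-04 for Csf1r, 8.85e-05 for Csf2ra, 3.15e-04 for Csf1 and 0.696 for Il34.

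The receptor, Csf1r, ranged in study 2 from 8.83 to 13.10 with a median of 10.63 in 17 responders, against 8.43 to 12.82 with a median of 9.68 in 14 non-responders. In study 3 it ranged from 10.38 to 13.36 with a median of 11.95 in 10 responders, against 9.54 to 10.61 with a median of 10.24 in 9 non-responders. In study 2, 1 of 17 responders exceeded the highest non-responder, and in study 3, 9 of 10 did. The study 2 count rests on non-responder replicate 14, at 12.82 and 1 of the 6 tumours low in melanocyte transcripts: without it the highest non-responder was at 10.88 and 8 of 17 responders exceeded it. Without all 6 such tumours, 7 of 16 study 2 responders and 7 of 8 study 3 responders exceeded every non-responder of their study. The difference was 1.04 ± 0.34 in study 2 (limma adjusted p = 0.0669) and 1.76 ± 0.44 in study 3 (limma adjusted p = 0.00287). Between the studies the difference itself varied by 0.72 ± 0.56 (limma adjusted p = 0.534), which was not called.

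The ligand Csf1 ranged in study 2 from 8.45 to 9.82 with a median of 9.18 in responders, against 7.76 to 9.31 with a median of 8.80 in non-responders. In study 3 its range was 8.51 to 9.71 with a median of 8.97 in responders and 8.16 to 8.71 with a median of 8.43 in non-responders. In study 2, 6 of 17 responders lay above every non-responder, and in study 3, 8 of 10 did. The differences were 0.45 ± 0.14 (limma adjusted p = 0.0535) in study 2 and 0.61 ± 0.18 (limma adjusted p = 0.00805) in study 3.

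The second ligand, Il34, lay low on the array, with a mean of 5.31 that exceeded 41.5% of all probe sets. In study 2 it ranged from 5.05 to 6.06 with a median of 5.30 in responders, against 4.86 to 5.70 with a median of 5.29 in non-responders. In study 3 it ranged from 4.99 to 5.74 with a median of 5.20 in responders, against 5.17 to 5.74 with a median of 5.43 in non-responders. The ranges overlapped in both studies, and 1 responder of each study exceeded every non-responder. Above the non-responder median lay 9 of 17 responders in study 2 and 3 of 10 in study 3. The 95% interval of the difference over both studies ran from -0.19 to 0.11.

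The GM-CSF receptor chains followed the receptor. Csf2rb ranged in study 2 from 6.13 to 11.05 with a median of 7.89 in responders, against 5.00 to 10.69 with a median of 6.92 in non-responders, and in study 3 from 7.12 to 11.19 with a median of 8.61 in responders, against 6.34 to 7.54 with a median of 6.83 in non-responders. Csf2ra ranged in study 2 from 7.55 to 10.19 with a median of 8.29 in responders, against 6.97 to 9.29 with a median of 7.50 in non-responders, and in study 3 from 7.62 to 10.50 with a median of 8.43 in responders, against 6.94 to 7.70 with a median of 7.39 in non-responders. All 17 study 2 responders had more Csf2ra than the median study 2 non-responder, and 9 of 10 study 3 responders exceeded every study 3 non-responder for both chains. With all tumours, 2 of 17 study 2 responders exceeded every study 2 non-responder for Csf2ra and 1 of 17 for Csf2rb. Study 2 non-responder replicate 14 was also the highest non-responder for both chains. Without it, 11 of 17 study 2 responders exceeded every non-responder for Csf2ra and 12 of 17 for Csf2rb. Without all 6 tumours low in melanocyte transcripts, 10 of 16 did for Csf2ra and 11 of 16 for Csf2rb. In study 2, with each gene at its brightest probe set, Csf2ra was the member called (0.73 ± 0.21, limma adjusted p = 0.0452), where 0.616% of all genes were called higher. A second Csf1 probe set was also called in study 2, as given with the probe sets below. In study 3, 4 members were called, where 14.4% of genes were. The study 3 differences were 2.03 ± 0.47 for Csf2rb and 1.07 ± 0.27 for Csf2ra. When the 6 tumours poor in melanocyte RNA were left out, 4 members were called in study 2 and the study 3 count stayed at 4. The share of all genes called higher was then 7.51% in study 2 and 6.40% in study 3, so it changed in both studies too. Leaving out single tumours of study 2 gave 0 to 4 called members. The count changed in 28 of 31 such cases, in most of them to 0, so that Csf2ra lost its call. It rose to 4 without non-responder replicate 14 or without responder replicate 12 or 15. The response difference between studies was called for 0 members and 0% of genes by limma, with 0 members at an unadjusted p under 0.05.

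**Figure D1:**
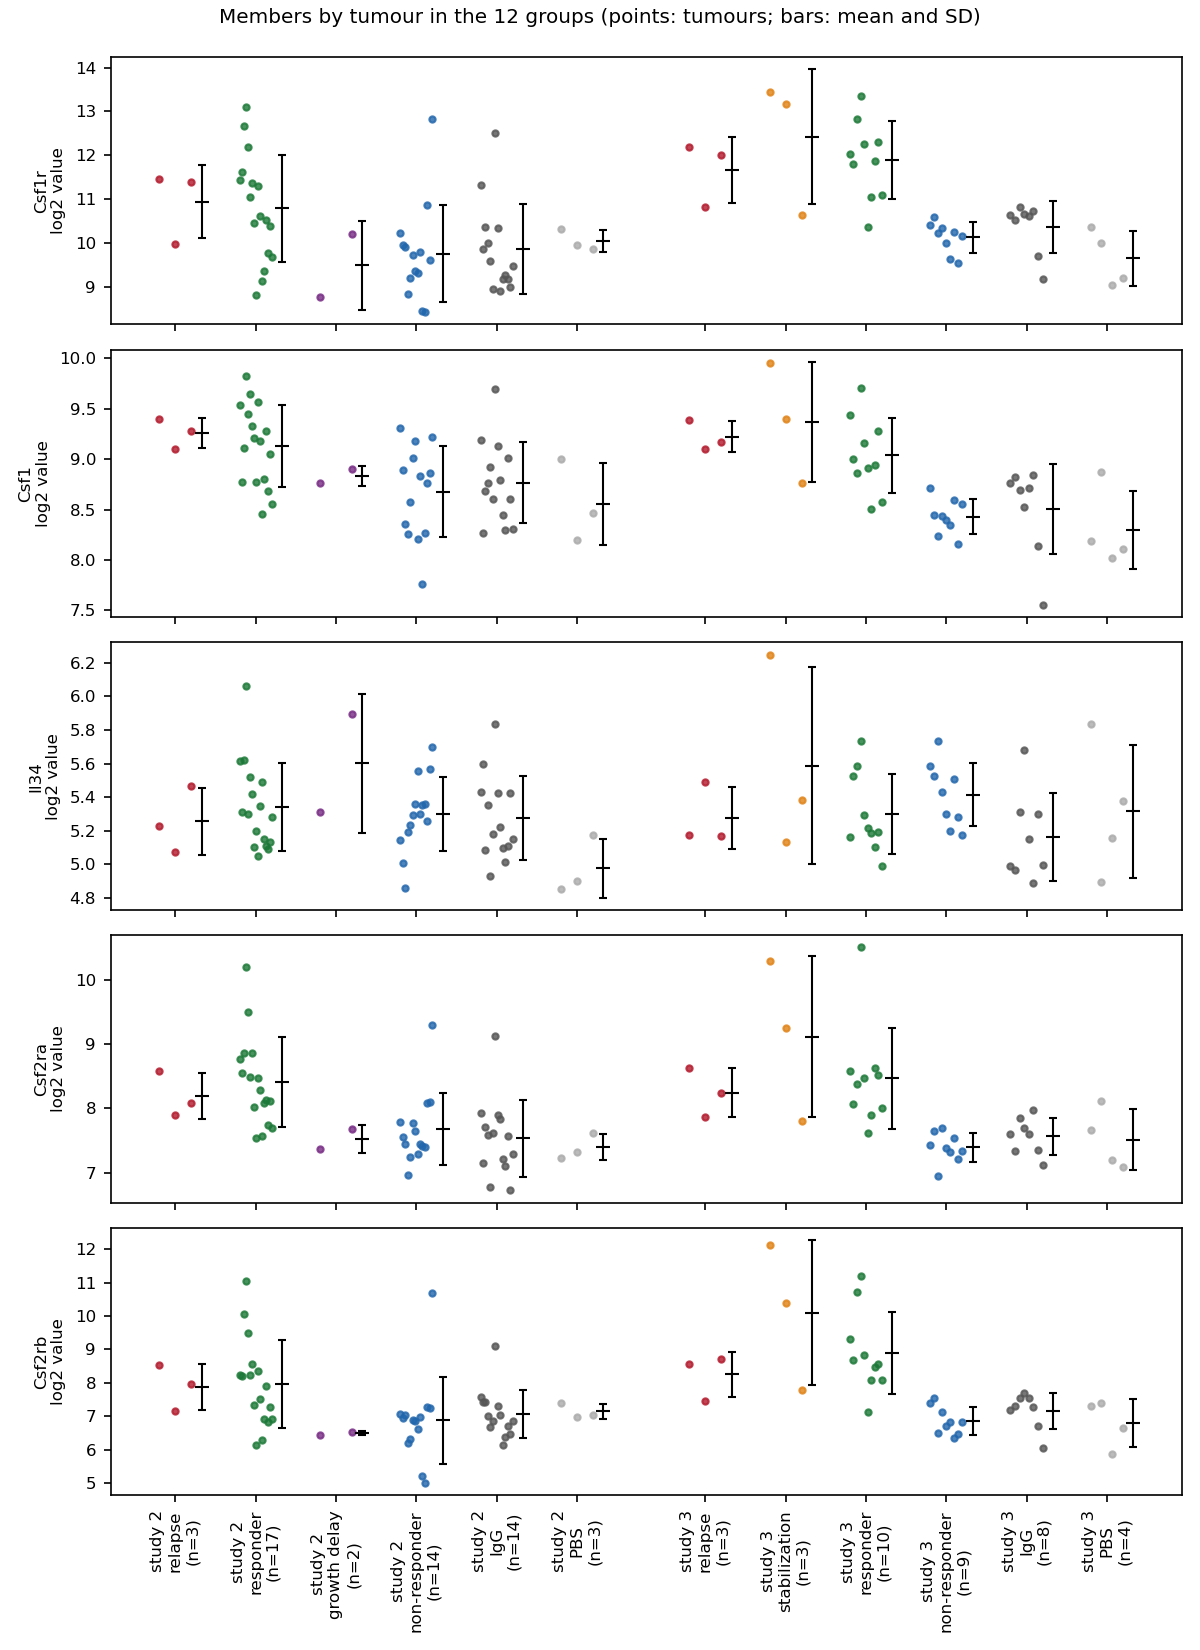
Log2 values of Csf1r, Csf1, Il34, Csf2ra and Csf2rb (vertical axes, one panel each) by tumour in the 12 groups of both studies. Points are tumours, and the bar beside each group is the mean with the SD. Responders of study 3 sit at 10.38 to 13.36 for Csf1r, against 9.54 to 10.61 in non-responders, while Il34 shows no such offset.

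Macrophage genes moved in the same direction. Of the 15 macrophage genes, 13 were higher in responders than in non-responders, with a median difference of 0.79 over the list, against a median of -0.06 over all genes tested. By study, 0 of 15 were called in study 2 (0.616% of all genes higher) and 11 of 15 in study 3 (14.4% of all genes higher). C1qc, a complement component that macrophages make, was higher by 0.97 ± 0.19 and Adgre1, the F4/80 antigen, by 1.11 ± 0.23, and Cd163 and Cd14 were not called. The list mean ranged from 8.18 to 11.18 in study 2 responders and 9.39 to 11.33 in study 3 responders, against 8.14 to 11.22 in study 2 non-responders and 9.06 to 9.87 in study 3 non-responders. All 8 measured T cell genes and all 10 fibroblast genes were also higher in responders, while 7 of 13 melanocyte genes were lower, against 18.9% of all genes called higher and 32.3% lower. In study 2 alone 1 of 8 T cell, 0 of 10 fibroblast and 0 of 13 melanocyte genes were called, and in study 3 alone 8, 8 and 6 were. Of all genes, 0.616% were called higher and 2.01% lower in study 2, against 14.4% and 22.4% in study 3. Fibroblast list means ranged from 6.61 to 12.08 and 9.09 to 12.46 in study 2 and study 3 responders, against 6.05 to 11.36 and 7.79 to 9.81 in non-responders of the same studies.

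With the macrophage list mean as a covariate in limma, 0 members were called for responders against non-responders, 5 at an unadjusted p under 0.05 (Il34 with a negative sign), and 0.335% of all genes were called higher. Csf1r then differed by 0.24 (adjusted p = 0.189) and Csf2rb by 0.34 (adjusted p = 0.165). Csf1r minus the macrophage list mean was higher in responders by 0.65 (2-sided permutation test within study, p = 5.0e-05, 100000 resamples), by 0.55 in study 2 and by 0.75 in study 3. The difference over both studies was 0.23 with every gene standardized first (permutation p = 0.00659). The plain subtraction takes a slope of 1, while the list mean itself differed by 0.75 and Csf1r moved more steeply than the list. Within groups, Csf1r moved by 1.58 log2 units for each unit of the list mean and Csf2rb by 1.64, against 0.38 for Csf1 and 0.20 for Il34. The part that T cell and fibroblast genes had in the result was not tested.

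Against the control antibody, which asks whether shrinking tumours differ from tumours never given anti-PD-L1, 4 of the 5 genes were again higher in responders, with 15.3% of all genes called higher. This comparison and the one with non-responders share the responders, so their likeness is not a separate result. Csf2rb was higher by 1.31 ± 0.31 (limma adjusted p = 0.00137) and Csf1r by 1.23 ± 0.28 (limma adjusted p = 0.00112). Csf2ra was higher by 0.88 ± 0.17 and Csf1 by 0.45 ± 0.11, and Il34 differed by 0.10 ± 0.08 (limma adjusted p = 0.289). The study 2 IgG tumours ranged for Csf1r from 8.92 to 12.51 with a median of 9.54, and in study 3 IgG tumours it ranged from 9.20 to 10.83 with a median of 10.64. The highest IgG tumour, study 2 replicate 7, lay above all but 2 of the study 2 responders, and 9 of 10 study 3 responders exceeded every study 3 IgG tumour.

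For the ligand Csf1, IgG tumours ranged from 8.27 to 9.70 with a median of 8.72 in study 2 and from 7.55 to 8.84 with a median of 8.70 in study 3. 1 of 17 study 2 responders and 8 of 10 study 3 responders lay above every IgG tumour of their study. Il34 in IgG tumours ranged from 4.93 to 5.83 with a median of 5.20 in study 2 and from 4.89 to 5.68 with a median of 5.07 in study 3, and 1 responder of each study exceeded that. Csf2ra in IgG tumours ranged from 6.73 to 9.12 with a median of 7.58 in study 2 and from 7.12 to 7.98 with a median of 7.60 in study 3. It was higher than in every IgG tumour in 2 of 17 study 2 responders and 8 of 10 study 3 responders. Csf2rb in IgG tumours ranged from 6.14 to 9.10 with a median of 6.94 in study 2 and from 6.07 to 7.70 with a median of 7.28 in study 3, and 3 of 17 study 2 responders and 9 of 10 study 3 responders exceeded it.

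Within study 2, 3 members were called against IgG (10.9% of genes higher) and Csf2rb was not, at 0.89 ± 0.37 (limma adjusted p = 0.0631). Within study 3, 4 members were called (9.2% of genes higher), with Csf2rb at 1.73 ± 0.49 and Csf1r at 1.53 ± 0.45. Mouse numbers form a separate run for each treatment in both studies, adjoining in study 2 and far apart in study 3. The labels name no cohort, so treatment and anything that goes with these numbers cannot be told apart. When those 6 tumours poor in melanocyte RNA were left out, the study 3 count by limma was 0, where 4.47% of all genes were called higher. Then 4 members had an unadjusted p under 0.05, with Csf2rb at 1.22 ± 0.40 (limma adjusted p = 0.0510). Without study 3 responder replicate 4 alone the study 3 count was 1. With the macrophage list mean as a covariate in limma the count over both studies was 0, with 1 at an unadjusted p under 0.05 and 0.561% of all genes called higher. In study 2 alone, with that covariate, Csf1r (0.39 ± 0.13) and Csf2ra (0.59 ± 0.13) were called, where 8.17% of all genes were called higher. Leaving out single tumours moved the study 2 count to between 1 and 4.

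Non-responders against IgG tumours gave 0 called members by limma, 0 at an unadjusted p under 0.05, and 0.0055% of all genes called higher. Csf1r differed by -0.17 ± 0.29 with a 95% interval from -0.75 to 0.41, and Csf1 by -0.08 ± 0.12 with an interval from -0.32 to 0.15. IgG against PBS tumours gave 0 members called, 0 at an unadjusted p under 0.05, and 0% of genes. IgG minus PBS was 0.26 ± 0.42 for Csf1r, with a 95% interval from -0.57 to 1.10, and 0.21 ± 0.17 for Csf1. The PBS tumours had Csf1r values of 10.33, 9.95 and 9.86 in study 2 and 10.37, 10.01, 9.05 and 9.20 in study 3. They lay within the range of the IgG tumours in study 2 and, but for study 3 replicate 3 at 9.05, in study 3.

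**Figure D2:**
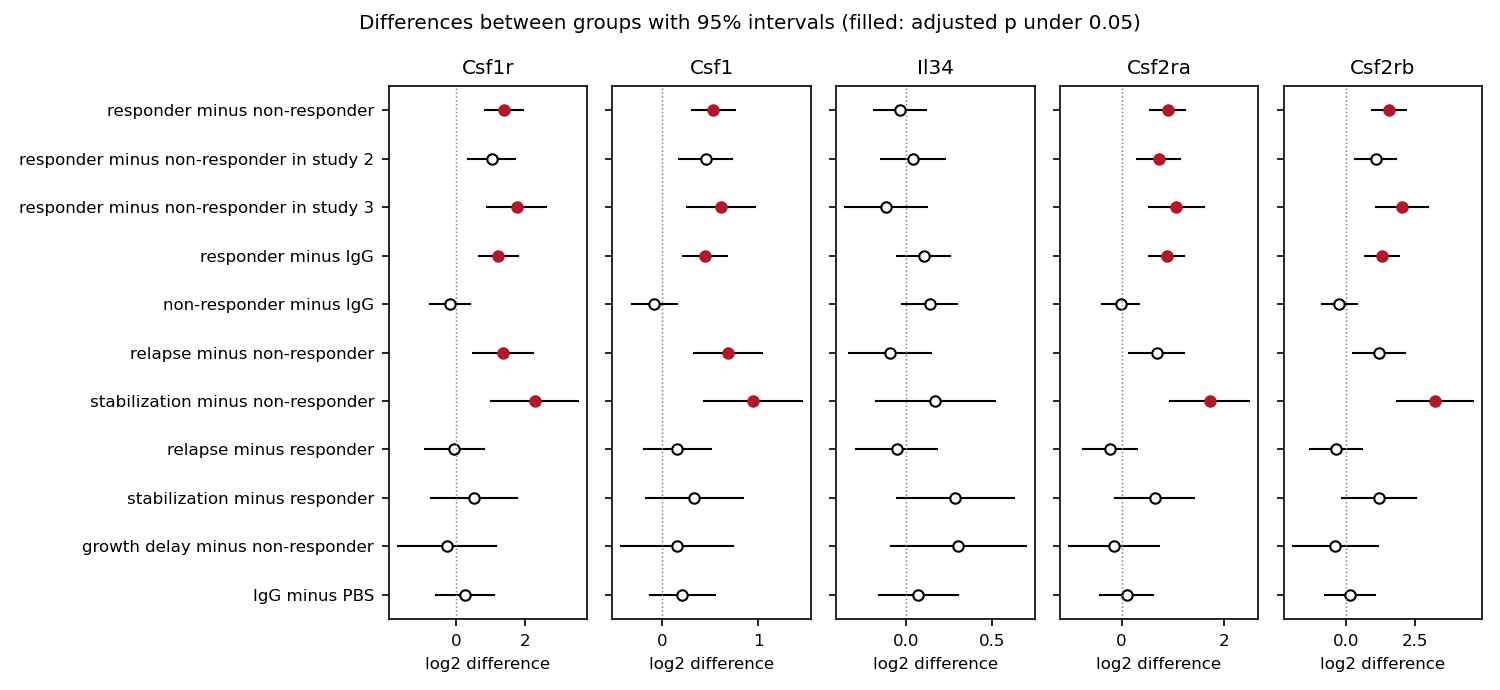
Differences between groups for each of the 5 genes (panels, log2 difference on the horizontal axis with its 95% interval), with comparisons down the page. Filled points have a limma adjusted p under 0.05, and Csf1r is filled at 1.40 for responders minus non-responders and open at -0.17 for non-responders minus IgG.

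In tumours whose volume had stopped moving, 4 members were higher than in study 3 non-responders, where 13.3% of all genes were called higher. Csf1r was at 13.44, 13.18 and 10.65 in the 3 stabilization tumours, against 9.54 to 10.61 in study 3 non-responders. Csf2rb was at 12.11, 10.39 and 7.80 in stabilization tumours, against 6.34 to 7.54 in non-responders. Csf2ra was at 10.29, 9.24 and 7.80 in stabilization tumours, against 6.94 to 7.70 in non-responders. For these 3 receptor genes every stabilization tumour exceeded every non-responder, but replicate 3 by little. Csf1 was at 9.95, 9.40 and 8.76 in stabilization tumours, against 8.16 to 8.71 in non-responders, again with no overlap. How many of all genes separate these groups in the same way was not counted, so the lack of overlap is a description. Il34 was at 6.25, 5.13 and 5.38 in stabilization tumours, against 5.17 to 5.74 in non-responders, and these groups overlapped. The differences were 2.29 ± 0.63 for Csf1r (limma adjusted p = 0.00616), 3.23 ± 0.69 for Csf2rb (limma adjusted p = 0.00138), 1.72 ± 0.39 for Csf2ra and 0.94 ± 0.26 for Csf1. Replicates 1 and 2 are both low in melanocyte transcripts, so leaving out the 6 such tumours leaves 1 stabilization tumour, replicate 3, which is assumed to vary like the other groups. The count by limma was then 0, with 0 at an unadjusted p under 0.05 and 0.0055% of all genes called higher, and a comparison of 1 tumour says little about the other 2. Leaving out replicate 1 alone gave 0 from the remaining 2 tumours. Stabilization against responder tumours gave 0 called members by limma, 0 at an unadjusted p under 0.05, and 0.0769% of all genes called higher.

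In tumours that regrew, 2 of the 5 genes, Csf1 and Csf1r, were higher than in non-responders. Relapse tumours had Csf1r at 11.47, 9.98 and 11.40 in study 2 and 12.18, 10.82 and 12.02 in study 3, and Csf1 at 9.39, 9.10 and 9.28 in study 2 and 9.39, 9.10 and 9.17 in study 3. In study 3 every relapse tumour exceeded every non-responder for both genes, and in study 2 the groups overlapped. Csf2ra was at 8.59, 7.90 and 8.09 in study 2 relapse tumours and 8.62, 7.87 and 8.24 in study 3 relapse tumours, and Csf2rb at 8.53, 7.15 and 7.96 in study 2 and 8.57, 7.47 and 8.72 in study 3. In study 3 all 3 relapse tumours exceeded every non-responder for Csf2ra, and 2 of 3 did for Csf2rb. The share of all genes without overlap between these groups was not counted. Il34 was at 5.23, 5.07 and 5.47 in study 2 relapse tumours and 5.17, 5.49 and 5.17 in study 3 relapse tumours, inside or at the edge of the non-responder range. Against non-responders over both studies, Csf1 was higher by 0.68 ± 0.18 (limma adjusted p = 0.00962) and Csf1r by 1.37 ± 0.44 (limma adjusted p = 0.0260). The Csf1r probe sets 1419873_s_at (1.10 ± 0.43, limma adjusted p = 0.0589) and 1423593_a_at (0.60 ± 0.29, limma adjusted p = 0.119) were not called here. For Csf1, 1448914_a_at was also higher (0.66 ± 0.17), and 1425155_x_at and 1425154_a_at were not called. Csf2ra (0.68 ± 0.27, limma adjusted p = 0.0520) and Csf2rb (1.19 ± 0.48, limma adjusted p = 0.0549) were not called, and 9.96% of all genes were called higher. The relapse count became 4 when the 6 tumours poor in melanocyte RNA were left out, where 17.9% of all genes were called higher. It was 4 without study 2 non-responder replicate 14 alone. It was 1 when any single one of 4 relapse tumours was left out (study 2 replicates 1 and 3, study 3 replicates 1 and 3). Relapse against responder tumours gave 0 called members by limma, 0 at an unadjusted p under 0.05, and 0% of genes, with an interval for Csf1r from -0.90 to 0.82.

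The 2 growth delay tumours had Csf1r at 8.79 and 10.22 and Csf2rb at 6.45 and 6.54, within the spread of study 2 non-responders. Against those non-responders 0 members were called by limma, 0 at an unadjusted p under 0.05, and 0% of genes, with an interval for Csf1r from -1.69 to 1.18.

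Csf1r levels ordered the 12 groups as follows, in means with their SD. Study 3 stabilization came highest (12.42 ± 1.54, n = 3), then study 3 responder (11.90 ± 0.88, n = 10), study 3 relapse (11.67 ± 0.75, n = 3), study 2 relapse (10.95 ± 0.84, n = 3) and study 2 responder (10.80 ± 1.22, n = 17). Below them lay study 3 IgG (10.37 ± 0.59, n = 8), study 3 non-responder (10.14 ± 0.35, n = 9), study 2 PBS (10.05 ± 0.25, n = 3) and study 2 IgG (9.86 ± 1.02, n = 14). The lowest were study 2 non-responder (9.76 ± 1.10, n = 14), study 3 PBS (9.66 ± 0.63, n = 4) and study 2 growth delay (9.50 ± 1.01, n = 2). No 2 neighbours in this order stood apart by more than the smaller of their SDs. Joint normalization of the studies is not stated in the sources used here, so the order across studies is a description.

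For Csf1 the highest mean was in study 3 stabilization (9.37 ± 0.59) and the lowest in study 3 PBS (8.30 ± 0.39), and 1 of 11 neighbouring pairs, study 3 responder (9.04 ± 0.37) above study 2 growth delay (8.83 ± 0.10), was apart by more than the smaller SD. Csf2rb ran from 10.10 ± 2.17 in study 3 stabilization to 6.50 ± 0.07 in study 2 growth delay, with 2 such pairs, and Csf2ra from 9.11 ± 1.25 in study 3 stabilization to 7.39 ± 0.23 in study 3 non-responder, with 1. Il34 means lay between 5.60 ± 0.41 in study 2 growth delay and 4.98 ± 0.17 in study 2 PBS, a narrower span than that of any other member.

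The probe sets of a gene did not all move alike. All 3 Csf1r probe sets were higher in responders than in non-responders (1.40, 1.35 and 0.83), where 16.7% of all probe sets were called higher. Of 4 Csf1 probe sets, 1460220_a_at (0.53 ± 0.11), 1448914_a_at (0.51 ± 0.11) and 1425155_x_at (0.29 ± 0.10) were higher, and 1425154_a_at was not called (0.01 ± 0.04, mean level 7.29). The second Csf2ra probe set, 1420704_at, at a mean of 5.52, was not called (0.10 ± 0.07), while both Csf2rb probe sets were (1.55 ± 0.30 and 1.15 ± 0.25). In study 2 alone, 1448914_a_at of Csf1 was called (0.51 ± 0.13, limma adjusted p = 0.0366). So was 1420703_at of Csf2ra (0.73 ± 0.21, limma adjusted p = 0.04995), while 1420704_at was not (0.02 ± 0.09, limma adjusted p = 0.899). The share of all probe sets called in study 2 was not counted. Against IgG, 12.3% of probe sets were called higher, and 1425155_x_at was not (0.17 ± 0.11). 1 further probe set names both Csf2rb and its near copy Csf2rb2 and was left out.

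**Figure D3:**
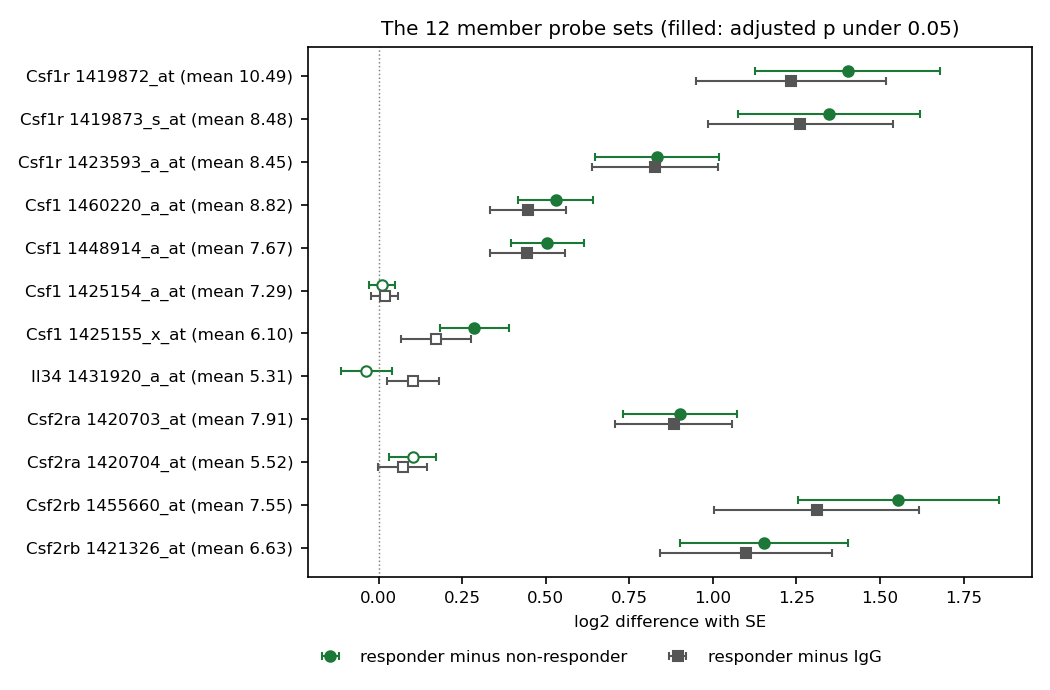
Log2 differences with their SE for the 12 member probe sets, ordered by gene and by mean level, for responder minus non-responder (circles) and responder minus IgG (squares). Filled symbols have a limma adjusted p under 0.05, as all 3 Csf1r probe sets do, and 1425154_a_at of Csf1 lies at 0.01 and is open.

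The other question was how the ligands related to the receptor tumour by tumour. To take the group differences out, each gene's deviation from its group mean was used, in the 72 tumours of the 6 groups with at least 6 tumours (responder, non-responder and IgG of both studies). The 5 genes give 10 pairs, and p-values are from permutation tests with 100000 resamples, for which 1e-05 is the smallest possible, with Benjamini-Hochberg adjustment over the 10.

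Csf1 went with Csf1r across tumours, with Pearson's r of 0.70 and Spearman's rho of 0.70 (permutation p = 1e-05 for both, adjusted 1.25e-05 and 1.67e-05). The relation stood at 0.66 without the 2 tumours of most extreme Csf1r, and at 0.70 in study 2 (45 tumours) and 0.74 in study 3 (27 tumours). Il34 related less closely to Csf1r, with r of 0.51 and rho of 0.37 (permutation p = 3.0e-05 and 0.00217, adjusted 3.33e-05 and 0.00241), and r was 0.40 without the 2 extreme tumours. Adjusting both genes for the macrophage list mean left r at 0.61 for Csf1 (permutation p = 1e-05) and at 0.14 for Il34 (permutation p = 0.269). The ligands related weakly to each other, with r of 0.29 (permutation p = 0.0187) and rho of 0.19 (permutation p = 0.116).

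Over the 72 tumours together, both GM-CSF receptor chains had a higher r with Csf1r than either ligand had. Csf2rb had r of 0.92 and rho of 0.89, and Csf2ra had r of 0.84 and rho of 0.79 (permutation p = 1e-05 for each, adjusted 1.25e-05 for r and 1.67e-05 for rho). Without the 2 extreme tumours r was 0.91 and 0.78. Within studies r was 0.94 in study 2 and 0.89 in study 3 for Csf2rb, and 0.87 in study 2 and 0.77 in study 3 for Csf2ra. After adjustment for the macrophage list mean, r was 0.50 for Csf2rb (permutation p = 4.0e-05) and 0.41 for Csf2ra (permutation p = 0.00146). Differences between these correlations were not tested.

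Inside single groups the Csf1 relation was uneven, over 24 relations tested. In study 2 responders it was 0.73 (rho 0.70, 0.75 without the 2 extreme tumours; permutation p = 9.9e-04, adjusted 0.00297), and in study 2 non-responders 0.64 (rho 0.69, 0.63 without the 2). In study 3 responders r was 0.69, and in study 3 non-responders 0.61 (exact permutation p = 0.0828, adjusted 0.0993) and 0.21 without the 2 extreme tumours. In IgG tumours the value rested on a few tumours: r was 0.74 in study 2 but 0.24 without its 2 extreme tumours, and 0.95 in study 3 (rho 0.48) but -0.24 without them. Il34 with Csf1r was 0.25 in study 2 non-responders and 0.61 in study 2 responders, where it fell to 0.26 without the 2 extreme tumours. Both chains stood above both ligands in every study 2 group and in study 3 responders. In study 3 non-responders Csf2rb (0.59) and Csf2ra (0.48) lay below Csf1 and Il34 (0.63). In study 3 IgG tumours Csf2ra (0.83) and, by little, Csf2rb (0.948) lay below Csf1 (0.951). Without the 2 extreme tumours the largest falls of the chains were in IgG tumours, Csf2ra from 0.77 to 0.30 in study 2 and Csf2rb from 0.95 to 0.30 in study 3. The other chain of each group changed less, Csf2rb from 0.90 to 0.68 in study 2 and Csf2ra from 0.83 to 0.87 in study 3.

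**Figure D4:**
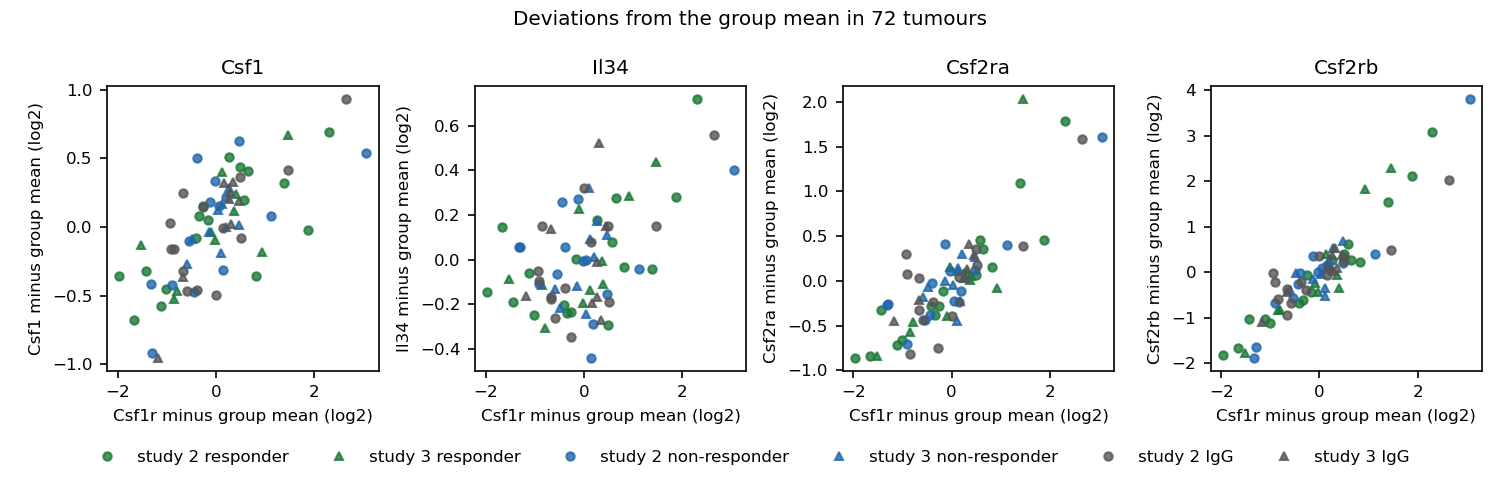
Deviation of Csf1, Il34, Csf2ra and Csf2rb from the group mean (vertical axes, log2) against that of Csf1r (horizontal axes, log2) in 72 responder, non-responder and IgG tumours of both studies. Points rise along a line for Csf2rb (r 0.92) and scatter most for Il34 (r 0.51).

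Ranked by r with Csf1r among 18193 other genes, Csf2rb had rank 37, Csf1 rank 893 and Il34 rank 2277, and the median r over all genes was -0.16. The 10 genes most like Csf1r by this measure were P2ry6 (r 0.97), Rassf4 (0.96), Frmd4b (0.96), Ncf1 (0.96), C1qa (0.96), Lcp1 (0.96), Adgre1 (0.95), Laptm5 (0.95), Rab3il1 (0.95) and Itgb2 (0.95). Nearest to Csf1 were Tapbp (0.89), which loads peptides on MHC class I, H2-K1 (0.88), a class I heavy chain, and Rbms1 (0.87). Nearest to Il34 were Dapk1 (0.75), Tspan5 (0.69) and Il1a (0.69). Csf2ra was nearest to Anpep (0.89), Mxra8 (0.88) and Sox7 (0.88), and Csf2rb to Ptpre (0.97), Lcp1 (0.96) and Ncf1 (0.96).

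Against the means of 15 lists of cell type and inflammation genes, 75 relations in all, Csf1r related most closely to the macrophage list (r 0.94, rho 0.89), with r of 0.88 for monocyte, 0.87 for fibroblast and 0.74 for T cell genes. Csf1 related most closely to genes induced by interferon gamma (r 0.70, rho 0.68) and less to the macrophage list (r 0.57). Il34 related most closely to inflammatory genes such as Tnf and Il1b (r 0.58, rho 0.44) and least to skeletal muscle genes (r 0.08, permutation p = 0.516). The melanocyte list ran the other way, with r of -0.51 for Csf1r, -0.64 for Csf2rb and -0.23 for Csf1 (permutation p = 0.0538, adjusted 0.0620). The lists and members were measured on the same arrays, and their correlations are descriptions.

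**Figure D5:**
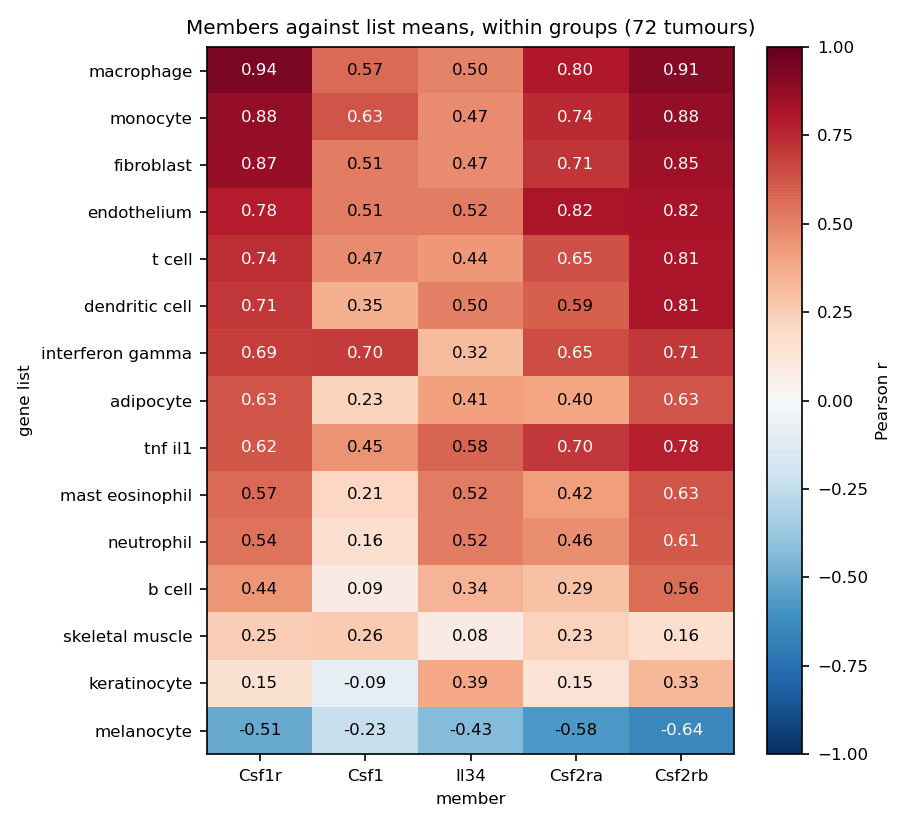
Pearson r between each of the 5 genes (columns) and the mean of each of 15 gene lists (rows), on deviations from group means in 72 tumours. The colour runs from blue (-1) to red (1), and the macrophage row reaches 0.94 for Csf1r and 0.57 for Csf1.

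The rest of the pathway was examined from lists of related genes. Of 18 measured genes that carry CSF1R or GM-CSF receptor signals, 14 were higher in responders than in non-responders and none was lower, with a median difference of 0.43, against 18.9% of all genes called higher and 32.3% lower. By study, 1 of 18 was called in study 2 (0.616% of all genes higher) and 13 of 18 in study 3 (14.4% of all genes higher). Socs1 (0.75 ± 0.14), a feedback inhibitor of cytokine signals, Jak2 (0.40 ± 0.08), the kinase that acts with the beta common chain, and Fgr (0.95 ± 0.20), a Src family kinase of myeloid cells, passed with adjusted p of 6.11e-05, 1.43e-04 and 2.49e-04 by limma. Sos1, Akt1, Src and Pik3cd were not called. Among 11 measured transcription factors of myeloid cells 9 were higher over both studies (1 in study 2 and 8 in study 3, where 1 other was lower), including Irf8 (1.49 ± 0.24), Spi1 (0.99 ± 0.20), which encodes PU.1, a known activator of Csf1r, and Cebpa (1.04 ± 0.22). Mitf and Egr1 were not called.

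Of 11 measured members of the wider colony-stimulating factor family 3 were higher, 2 lower and 6 not called, with a median difference of -0.05, against 18.9% of all genes called higher and 32.3% lower, so these shares are not a result about the family. In study 2 none of the 11 was called. Csf3r, the G-CSF receptor, was higher by 0.65 ± 0.14 and Csf2rb2, the second mouse beta chain, by 1.35 ± 0.30, and Kitl, the ligand of Kit, by 0.52 ± 0.13. Il5 differed by -0.19 ± 0.04 and Il3 by -0.21 ± 0.05, both lower in responders. Csf2, which encodes GM-CSF itself, was not called (-0.05 ± 0.06). Of 3 other proteins reported to bind IL-34, Trem2 was higher (0.52 ± 0.19), and Sdc1 and Ptprz1 were not called. Of the list of genes induced by TNF or interleukin 1, 6 of 8 genes were higher over both studies, Tnfaip3 by 0.80 ± 0.15 and Tnf by 0.42 ± 0.09. By study, 0 of 8 were called in study 2 (0.616% of all genes higher) and 6 of 8 in study 3 (14.4% of all genes higher).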

How the data were processed

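RNA (800 ng per tumour, biotin label, per the labels' protocols) was hybridised to Affymetrix arrays, and the deposited series table holds log2 values for 45101 probe sets that the submitters' processing notes credit to RMA, with limma also named. Joint normalization of the studies is not stated in the sources used here. The values ran from 2.19 to 14.84 and array medians from 5.71 to 5.90, so no further normalization was applied. Probe sets with 1 gene symbol in the platform annotation (34958) were kept, 932 with several symbols and 9211 with none were not, and each gene took its probe set with the highest mean over all 90 arrays.

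A model with a mean for each of 12 groups was fitted to all 18194 genes with limma 3.58.1 in R 4.3.3 (lmFit, eBayes, 2-sided, Benjamini-Hochberg adjustment), and comparisons over both studies weight the studies equally. Each tumour had its own mouse number, and the number of arrays limits the precision. No 2 arrays held identical values. Correlations and permutation tests used Python 3.11.15 with numpy 2.4.6 and pandas 2.3.3. The fit was also run on simulated data with independent noise for each gene, which cannot show how it handles genes that move together. Of 194 entries in 19 gene lists, 175 were measured, and the others were not analysed here. The named genes outside the 5 are those of the lists and, by rule, the 10 genes most correlated with Csf1r and the 3 most correlated with each other member. The 5 genes and the lists were chosen with earlier results of these data known.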

Additional observations from a re-analysis of the deposited data

Results flagged for a closer look

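1 of the 20 gene and group combinations tested for a sample far from the others, in groups of 4 to 10 tumours, was singled out. Csf2ra reached 10.4992 in study 3 responder replicate 4, and the nearest of the other 9 tumours lay at 8.62. The gap made up 0.653 of the group's range, against a critical value of 0.466, and chance singles out about 1 in 20 such groups. The same tumour had the lowest melanocyte list mean of all 90 (6.38) and a skeletal muscle list mean of 13.58. The part of these in its Csf2ra value was not tested.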

How the results depend on the processing

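The 4 called members for responders against non-responders, and against IgG, over both studies stayed at 4 when each tumour was left out in turn and under all alternatives but the macrophage covariate. With that covariate the count was 0 for both, 0 for responders against non-responders in study 2 and in study 3, 0 against IgG in study 3, 1 for relapse and 0 for stabilization against non-responders, where Csf1r reversed to -0.016, and r of Il34 with Csf1r was 0.14. With that covariate, 4.86% of all genes were called higher for relapse against non-responders. For responders against non-responders it was 0.0165% in study 2 and 0% in study 3. The within-study counts were less stable. Responders against non-responders in study 2 (1 called) gave 4 with array weights, 4 without the 6 tumours low in melanocyte transcripts, and 0 with the mean of probe sets, with quantile normalization, without dim genes and with only the compared groups. Responders against IgG gave 1 in study 2 with quantile normalization (4.70%). In study 3 that comparison gave 2 with only the compared groups (4.62%) and 0 without the 6 tumours (4.47%). Relapse against non-responders (2 called) gave 4 with array weights (24.2%), with the 3 prime minus 5 prime covariate (12.0%) and without the 6 tumours (17.9%). Stabilization against responders gave 3 (12.5%) and IgG against PBS 1 (6.51%) with array weights. The calls gained with array weights thus came with more calls among all genes. The cause of these changes was not tested. Stabilization against non-responders gave 0 without the 6 tumours, but that leaves 1 stabilization tumour, assumed to vary like the other groups. Leaving out 1 tumour gave ranges of 0 to 4 for responders against non-responders in study 2, 1 to 4 against IgG in study 2 and in study 3, 1 to 4 for relapse and 0 to 4 for stabilization against non-responders, and 0 to 2 for stabilization against responders, where replicate 3 gave the 2. The share of all genes called was not counted with single tumours left out. Of the single-gene values under the other alternatives, 694 kept their status, 41 lost a call, 20 gained one and 1 reversed. The 694 include values called in neither fit, such as those of Il34, so they do not measure how often a call was kept. No paired analysis was possible because the labels give no replicate numbers. Il34 rests on 1 dim probe set, and groups of 2 to 4 tumours leave wide intervals.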
